A study of Mus musculus with 2 samples.

Results

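Lhx2, Lhx9, Ldb1, Ldb2, Lmo1, Lmo2, Lmo3 and Lmo4 encode mouse LIM homeodomain factors and the nuclear LIM-binding and LIM-only proteins that act with them. The 8 genes were chosen by name, and all 8 were among the 43346 genes quantified. Their RNA was measured in the whole limb of mouse embryos of the strain B6NCrl at embryonic day 11.5. The only group held 2 biological replicates, a mixed-sex pool of 109 embryos and one of 88 embryos. The labels name no genotype change, treatment or control, so the values below are levels in this limb tissue and not responses. In a whole limb, fewer cells of a type and less RNA per cell cannot be told apart.

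LIM homeodomain proteins carry a pair of LIM domains, which are zinc-binding protein interfaces, and a homeodomain, which binds DNA. LDB proteins bind LIM domains and also bind each other, so that one LDB dimer can join LIM factors on separate stretches of DNA. LMO proteins consist of LIM domains with no homeodomain, and they can occupy LDB in place of a LIM homeodomain factor or bring it into other complexes. In the limb bud, Lhx2 and Lhx9 are known from distal mesenchyme, Lmx1b from dorsal mesenchyme, and LDB1 as their shared partner in growth and patterning signals.

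The homeobox, the part of the gene that encodes the homeodomain, is shown first because the transcript forms of Lhx9 differ inside it. Both sequences below were cut from annotated coding sequences, with the codons for the Trp-Phe-Gln-Asn core of the DNA-recognition helix in capitals.
Lhx2-201, coding bases 796 to 975: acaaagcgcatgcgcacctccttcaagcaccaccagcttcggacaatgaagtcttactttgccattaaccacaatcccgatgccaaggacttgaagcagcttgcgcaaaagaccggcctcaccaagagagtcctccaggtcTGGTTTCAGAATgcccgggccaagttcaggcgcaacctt
Lhx9-202, coding bases 772 to 951: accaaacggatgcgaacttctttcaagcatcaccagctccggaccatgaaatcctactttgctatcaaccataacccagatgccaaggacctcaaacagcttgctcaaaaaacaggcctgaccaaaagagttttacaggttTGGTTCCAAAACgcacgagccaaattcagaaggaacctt
The homeoboxes had 143 of 180 bases in common, while all 60 of the 60 encoded residues were identical. The core stands at residues 48 to 51 of the homeodomain. Over the whole encoded proteins, Lhx2-201 and Lhx9-204, an Lhx9 form of 397 codons with the same homeobox, were identical at 75.3% of aligned residues.

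All 8 genes were detected at 1 TPM or more in both libraries, where TPM is a share of all transcripts corrected for their length. The same level was passed by 56.3% of all protein-coding genes. Expected counts, the estimated reads per gene, were whole numbers within 0.005 for all 8 genes in both libraries, as for 72.6% of detected protein-coding genes. Fractions arise where reads are divided between genes, so no such division was visible for these genes in spite of their related sequences. Means below are given ± SD over the 2 libraries.

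**Figure D1:**
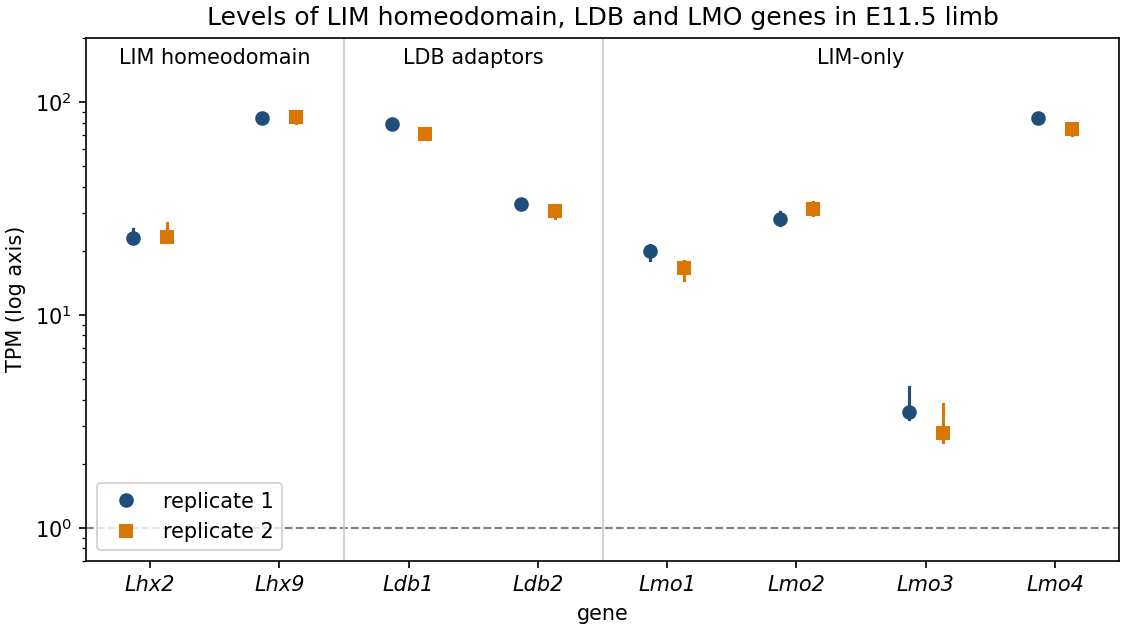
TPM of each of the 8 genes on a log axis, with circles for replicate 1 and squares for replicate 2. Vertical lines are the deposited TPM bounds, whose credibility level was not given, and the dashed line marks the detection level of 1 TPM. Lhx9, Lmo4 and Ldb1 stand highest and Lmo3 lowest in both libraries.

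Of the LIM homeodomain pair, Lhx9 was the more abundant. Lhx9 (ENSMUSG00000019230, GRCm38 chr1:138825186-138848577, minus strand) had 84.22 TPM in replicate 1 and 84.71 TPM in replicate 2, from 8292 and 6642 counts. Its mean of 84.5 ± 0.346 TPM exceeded that of 91.7% of protein-coding genes. Lhx2 (ENSMUSG00000000247, GRCm38 chr2:38339281-38369733, plus strand) had 22.92 and 23.16 TPM, from 1717 and 1397 counts. Its mean was 23.0 ± 0.170 TPM, above 74.3% of protein-coding genes. Both genes lay nearly level between the pools, and their deposited TPM bounds overlapped. The ratio of Lhx9 to Lhx2 was 3.67 in replicate 1 and 3.66 in replicate 2, so Lhx9 held 78.6% ± 0.0550 of the pair's TPM.

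The pair also made up most of the LIM homeodomain RNA of the limb. Over the 12 LIM homeodomain genes measured, Lhx2 and Lhx9 together held 81.7% of summed TPM in replicate 1 and 79.9% in replicate 2. Lhx9 alone held 63.5% ± 1.03 and Lhx2 17.3% ± 0.223. Of the other 10 genes, 3 reached 1 TPM in both libraries, beside 56.3% of all protein-coding genes. The median of the 10 was 0.458 TPM beside 3.02 TPM over all protein-coding genes. Isl1, which marks posterior limb mesenchyme and motor neurons, had 12.46 and 14.83 TPM, or 10.2% ± 1.05 of the family. Lmx1b, the dorsal limb determinant, had 8.06 and 7.87 TPM, or 5.99% ± 0.222. Lhx2 thus exceeded Isl1, the next gene of the family, in both libraries, though by less in replicate 2. Isl2, the third of those detected, averaged 1.93 ± 0.608 TPM and was named after its value was seen. Lhx4 had 0 counts in replicate 1 and 3 in replicate 2, and Lhx5 had 2 and 0. As a library with 0 counts may hide as many as 3, neither gene was measurable at this depth.

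The LDB adaptors had a summed level close to that of the LIM homeodomain pair. Ldb1 (ENSMUSG00000025223, GRCm38 chr19:46031570-46045214, minus strand) had 78.7 and 70.67 TPM, from 4032 and 2986 counts. Its mean of 74.7 ± 5.68 TPM exceeded 90.6% of protein-coding genes. Ldb2 (ENSMUSG00000039706, GRCm38 chr5:44472132-44799680, minus strand) had 33.32 and 30.65 TPM, from 2239 and 1711 counts. Its mean was 32.0 ± 1.89 TPM, above 79.3% of protein-coding genes. Both adaptors were lower in replicate 2, and the deposited bounds of the pools overlapped for Ldb2 but not for Ldb1. Ldb1 stood at 2.36 times Ldb2 in replicate 1 and 2.31 times in replicate 2. The encoded proteins were identical at 77.4% of aligned residues.

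Ldb1 shares 329 nt of its 5′ end with Pprc1, a coactivator gene on the opposite strand. Pprc1 had 42.91 and 40.51 TPM, from 3813 and 3449 counts. Expected counts of both genes were whole numbers in both libraries, so no division of reads between them was visible. Whether counting used strand was not given, and the assignment of reads from the shared stretch was not tested. Of genes overlapping the other members, Gm27197 and Gm13584 in Lhx2 had 4 and 6 and 2 and 0 counts. In Lmo3, the antisense genes A830011K09Rik and B230110G15Rik had 6 and 2 and 0 and 0 counts. 4931422A03Rik, opposite Lmo2, had 27.18 and 25.37 counts. Counts of these overlapping genes were small beside those of Lhx2, Lmo2 and Lmo3. No value was matched for Gm30332 in Lmo3, for the 11 annotated genes inside Ldb2, for Gm44781 in Lmo1 or for Gm43445 in Lmo4, and no gene of GENCODE M21 overlaps Lhx9.

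The 4 LIM-only genes spanned the widest range of the 3 classes. Lmo4 (ENSMUSG00000028266, GRCm38 chr3:144188530-144205220, minus strand), which encodes a partner of DEAF1, CtIP and LDB1, had 83.73 and 74.26 TPM. These came from 3400 and 2477 counts, and the mean of 79.0 ± 6.70 TPM exceeded 91.1% of protein-coding genes. Lmo2 (ENSMUSG00000032698, GRCm38 chr2:103957986-103981878, plus strand), known as a bridge in blood and endothelial transcription complexes, had 28.11 and 31.31 TPM, from 1070 and 972 counts. Its mean was 29.7 ± 2.26 TPM, above 78.3% of protein-coding genes. Lmo4 was lower in replicate 2 and Lmo2 was higher there, so their ratio went from 2.98 to 2.37. The deposited bounds of the pools did not overlap for Lmo4, at 79.5 to 85.5 and 69.9 to 76.1 TPM, and overlapped for Lmo2.

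Lmo1 (ENSMUSG00000036111, GRCm38 chr7:109138572-109175207, minus strand) had 19.98 and 16.58 TPM, from 547 and 377 counts, with deposited bounds of 18.0 to 21.2 and 14.6 to 17.9 TPM that did not overlap. Its mean of 18.3 ± 2.40 TPM exceeded 70.6% of protein-coding genes. Lmo3 (ENSMUSG00000030226, GRCm38 chr6:138362918-138581968, minus strand) had 3.5 and 2.8 TPM, from 222 and 161 counts, with overlapping bounds. Its mean of 3.15 ± 0.495 TPM lay near the median of protein-coding genes. The bounds of Ldb1, Lmo1 and Lmo4 thus did not overlap, and the share of all genes with such bounds was not taken. These bounds are on the deposited TPM scale, where spike-in RNAs took 11.8% of TPM in replicate 1 and 17.2% in replicate 2. Bounds rescaled without spike-ins were not compared, so the non-overlap is not read as a difference between the pools. Lmo1 and Lmo3 encode the closest pair of the class, with 85.3% identical residues, yet their levels differed by 5.71 times in replicate 1 and 5.92 times in replicate 2. The other 5 pairs of LMO proteins were 45.8% to 54.4% identical, with Lmo2 and Lmo4 the farthest apart. Lmo4 held 60.7% ± 1.73 of the class's TPM, Lmo2 22.9% ± 3.03, Lmo1 14.0% ± 1.06 and Lmo3 2.41% ± 0.244.

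Summed together, RNA of the LIM homeodomain pair and the LMO class exceeded RNA of the LDB adaptors, but by class only LMO RNA did so in both pools. The LIM homeodomain pair summed to 107 TPM in replicate 1 and 108 TPM in replicate 2, the LDB pair to 112 and 101 TPM, and the LMO class to 135 and 125 TPM. The LIM homeodomain pair stood at 0.956 times the LDB pair in replicate 1 and 1.06 times in replicate 2, so the pools put these classes in opposite order. LMO RNA exceeded LDB RNA in both, at 1.21 and 1.23 times. LIM homeodomain and LMO RNA together came to 2.16 and 2.30 times LDB RNA. These ratios compare RNA and carry no information on protein or on binding.

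Ordered by mean TPM, the genes fell into an upper group of 3, a middle group of 4 and Lmo3. A step between neighbours was taken as a difference when, in both libraries, it exceeded the 95th percentile of between-pool differences among genes at the abundance of the lower gene. By that rule 2 of 7 neighbouring steps differed. The step from Ldb1 to Ldb2 was 1.24 and 1.20 in log2 TPM beside a limit of 0.29. The step from Lmo1 to Lmo3 was 2.48 and 2.52 beside a limit of 0.78. Lhx9, Lmo4 and Ldb1 did not differ beyond the spread, with steps of 0.01 and 0.19 from Lhx9 to Lmo4 (limit 0.24) and of 0.09 and 0.07 from Lmo4 to Ldb1 (limit 0.27). Ldb2, Lmo2, Lhx2 and Lmo1 were likewise not separated step by step, but they form a chain of neighbours and not 1 level. The rule did not compare its ends directly, Ldb2 at 33.32 and 30.65 TPM and Lmo1 at 19.98 and 16.58 TPM. Lmo2 and Ldb2 changed places, with log2 steps of 0.24 in replicate 1 and -0.03 in replicate 2. With replicate 2 alone, 4 of 7 steps passed.

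Between the pools, none of the 8 genes passed the test with its fold limit. The test was an exact binomial test on TMM-scaled counts, with Benjamini-Hochberg adjustment over 16787 genes and a call at an adjusted p of 0.05 and a log2 ratio of 1 or more in size. It compares these libraries, not conditions, and covers counting error only, since it treats reads as independent and has no spread between replicates. It called 0 of the 8 members and 3.09% of all genes tested. Without the fold limit it called 3 members, namely Ldb1, Lmo2 and Lmo4, beside 29.6% of all genes. With the biological coefficient of variation of 7.65% entered in edgeR's exact test, it called 0 members beside 1.75% of all genes, and their adjusted p ran from 0.94 to 1. That coefficient was estimated from the differences between the same 2 libraries, so genes with typical differences cannot pass, and the count of 0 says nothing about stability.

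Ldb1, Ldb2, Lmo1, Lmo3 and Lmo4 were lower in replicate 2 in both TPM and scaled counts, and Lhx2 and Lmo2 were higher there. The direction of Lhx9 changed with the unit. Scaled counts of Lmo4 in CPM (counts relative to library size) were 84.1 in replicate 1 and 76.3 in replicate 2, a log2 ratio of -0.14 with an adjusted p of 0.0016 in the exact binomial test. Those of Ldb1 were 99.7 and 92.0, a log2 ratio of -0.12 with an adjusted p of 0.0046 in the same test. Those of Lmo2 were 26.5 and 29.9, a log2 ratio of 0.18 with an adjusted p of 0.024. Each stayed within the 95th percentile of absolute log2 differences of genes at its abundance, which was 0.23 for Lmo4, 0.22 for Ldb1 and 0.32 for Lmo2. Lmo1, at 13.5 and 11.6 CPM, had the largest ratio in size, -0.22, with an adjusted p of 0.069. Lhx9 had 205 and 205 CPM and Lhx2 42.5 and 43.0, which placed both below the median difference of their abundance.

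**Figure D2:**
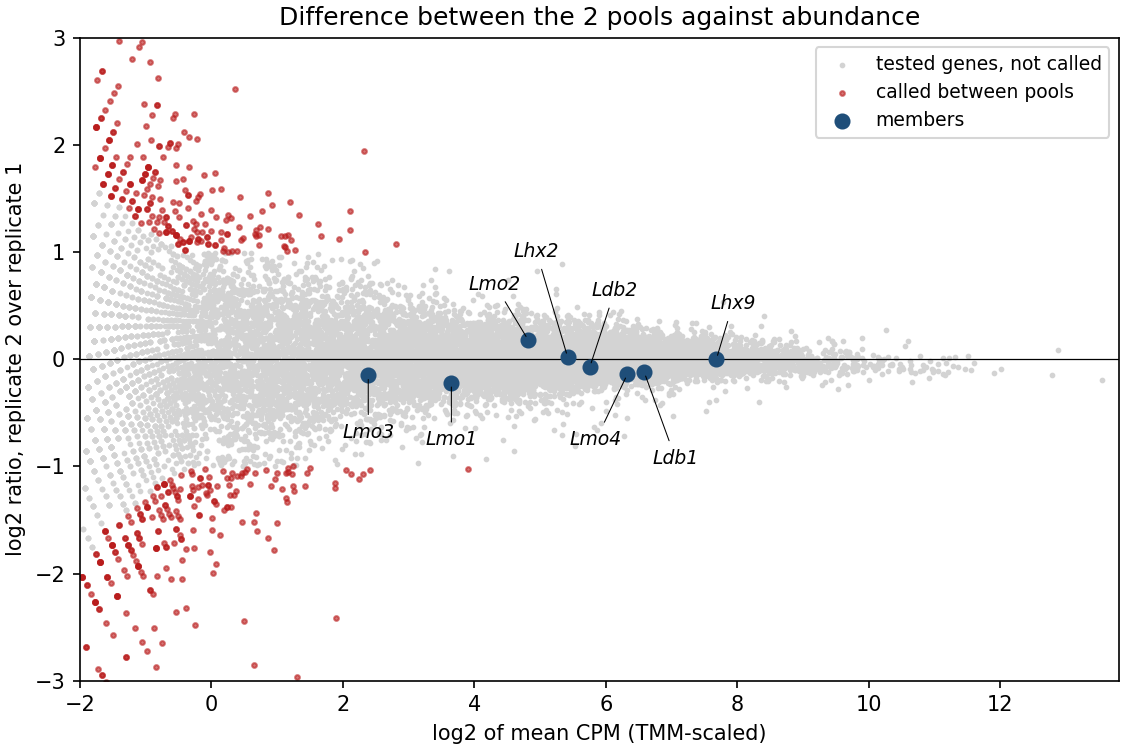
Log2 ratio of replicate 2 over replicate 1 against log2 of mean CPM after TMM scaling. Points are the tested genes that matched a symbol, with 40 genes outside the plotted range. Red points passed the exact binomial test with its fold limit and large blue points are the 8 genes, all of which lie within the grey band.

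Transcript shares, the percent of a gene's TPM assigned to each annotated transcript, showed which forms of each gene the limb held. The tables listed 46 transcripts of the 8 genes, of which 18 reached 10% in a library and 13 were at 0 in both. These shares are model estimates, and no test was made on them. Ldb2 and Lmo1 had 1 transcript each in the tables, so nothing about their forms can be read here. Lhx2 was nearly all 1 form, Lhx2-201 of 406 codons, with 95.96% in replicate 1 and 91.38% in replicate 2.

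**Figure D3:**
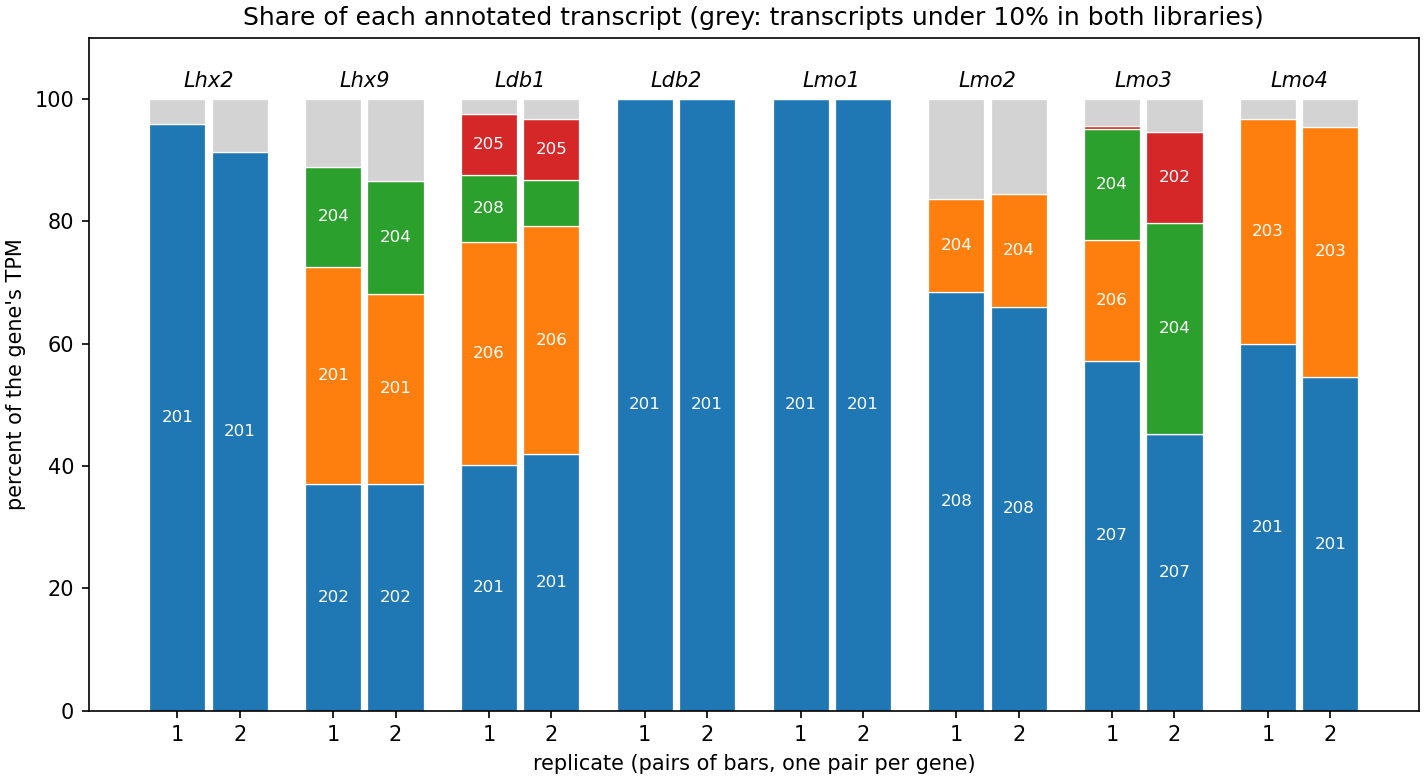
Percent of each gene's TPM held by its annotated transcripts, as stacked bars for replicates 1 and 2. Numbers in the bars are the last part of the transcript names. Lhx2 has 1 dominant form, Ldb2 and Lmo1 have only 1 transcript listed, and the other genes are split.

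Lhx9 was divided among 3 main forms, which combine separate groups of starts with separate last exons. Lhx9-202, of 388 codons, held 37.1% and 37.15%. Lhx9-201, of 330 codons, held 35.41% and 30.91%. Lhx9-204, of 397 codons, held 16.41% and 18.56%. Lhx9-202 starts 5.26 kb upstream of Lhx9-201, and transcripts from the downstream group of starts held 58.6% and 57.7% of the gene.

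The forms part within the homeobox. Lhx9-201 reads the first 138 bases of the homeobox, or 46 codons, and then joins its own last exon. That exon (GRCm38 chr1:138825186-138828710) adds 54 coding bases, and the core of the recognition helix is missing. Lhx9-202 joins a nearer last exon (GRCm38 chr1:138829146-138831624), which supplies the last 14 homeodomain codons and the core. The lines below show both, from the first base of the homeobox, with bases of the last exon in capitals.
Lhx9-202, to the end of the homeobox: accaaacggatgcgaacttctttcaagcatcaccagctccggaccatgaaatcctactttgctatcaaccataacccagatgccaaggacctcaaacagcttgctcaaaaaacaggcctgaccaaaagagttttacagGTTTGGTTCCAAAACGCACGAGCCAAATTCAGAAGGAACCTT
Lhx9-201, to its last coding base: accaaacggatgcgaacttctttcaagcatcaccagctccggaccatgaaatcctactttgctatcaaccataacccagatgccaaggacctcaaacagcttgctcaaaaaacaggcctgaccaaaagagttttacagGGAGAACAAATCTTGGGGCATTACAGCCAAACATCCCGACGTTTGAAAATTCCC
Both forms keep the 2 LIM zinc-binding motifs. A form of Lhx9 without a complete homeodomain has been described under the name LHX9 alpha.

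Over its transcripts, 53.5% of Lhx9 TPM in replicate 1 and 55.7% in replicate 2 encoded the homeodomain core. The distal last exon without the core was carried by 35.4% and 30.9% of TPM. The remainder was mainly Lhx9-207, annotated as a target of nonsense-mediated decay, at 6.77% and 8.26%, and Lhx9-206, a retained intron, at 4.31% and 5.1%. By expected counts rather than TPM, 46.9% and 50.2% fell on forms with the core and 49.0% and 44.6% on the distal form, so which was ahead depended on the unit and the pool. Lhx9-201 has a last exon of 3525 nt, beside 2479 nt in Lhx9-202, and counts grow with length while TPM does not.

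**Figure D4:**
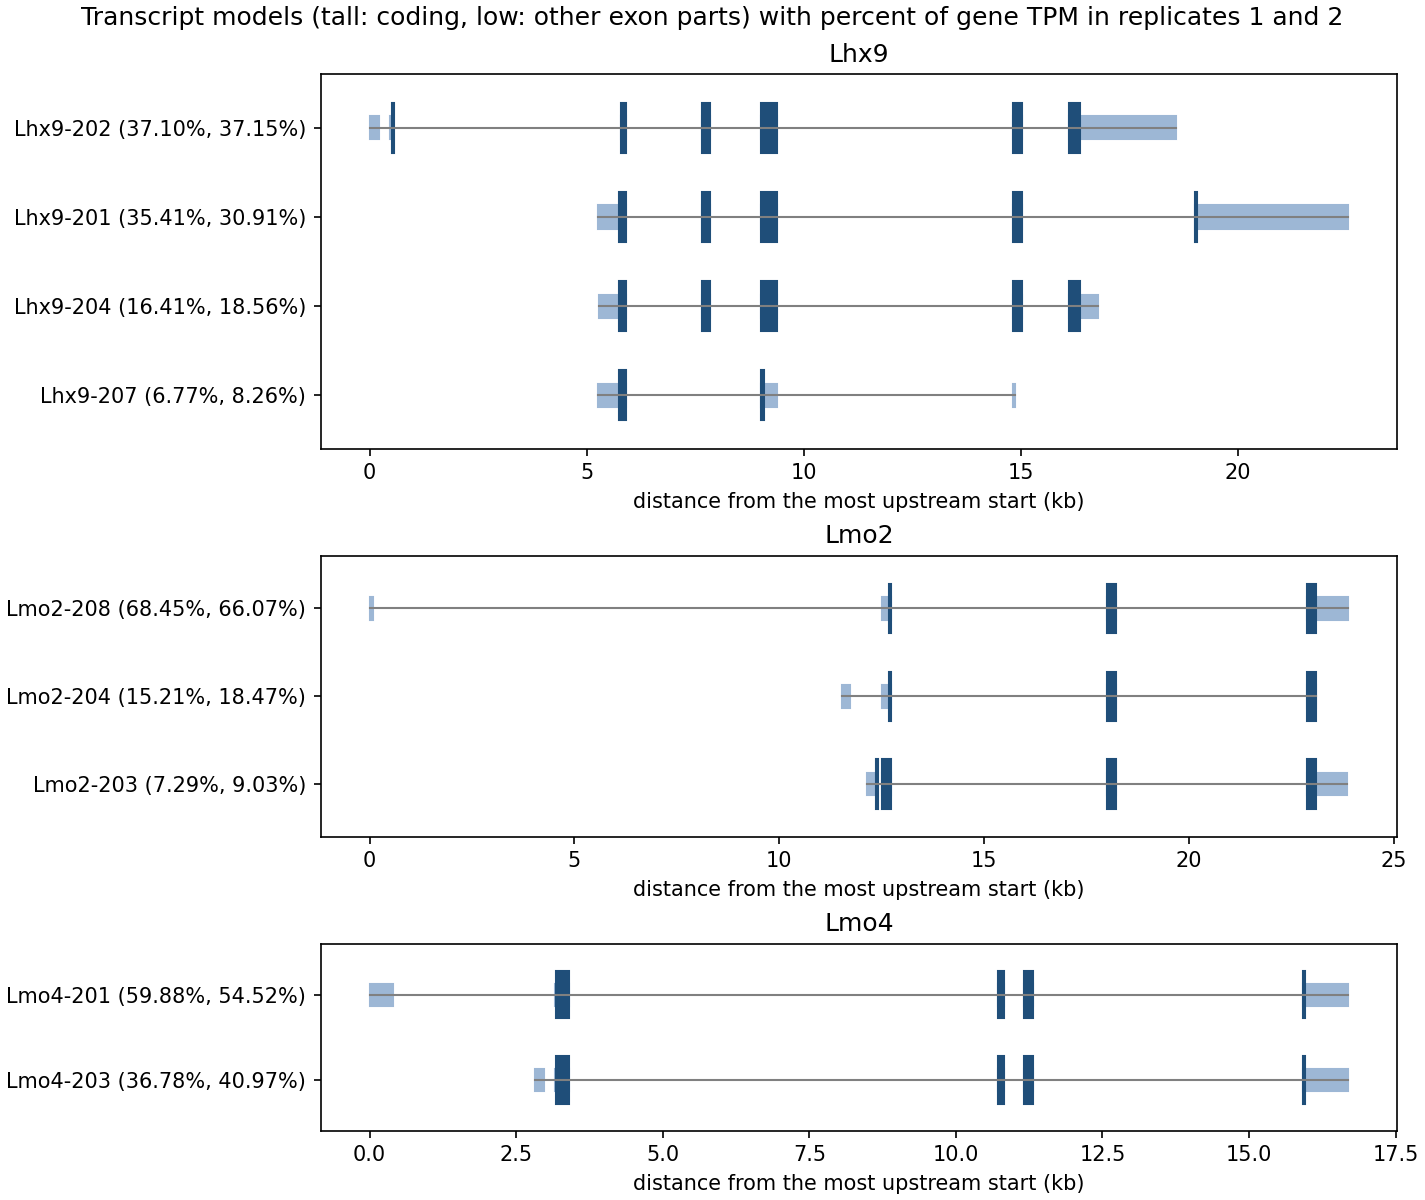
Exon models of the main Lhx9, Lmo2 and Lmo4 transcripts by distance in kb from the most upstream start shown, with coding parts tall and other exon parts low. Percent of gene TPM in replicates 1 and 2 is beside each name, and Lhx9-201 ends in a last exon of its own while the Lmo4 forms differ in the first exon.

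Ldb1 was split in part by a small change at an exon end and by its first exon. Ldb1-201, of 375 codons, held 40.21% and 41.91%, and Ldb1-206, of 373 codons, held 36.41% and 37.25%. Ldb1-208, of 411 codons, held 11.0% and 7.58%, and Ldb1-205, of 319 codons, held 9.88% and 10.01%. The donor site of the penultimate exon accounts for the 2 codons between Ldb1-201 and Ldb1-206. The coding sequence across that junction is shown with the 6 bases kept by the longer donor in capitals.
Ldb1-201, coding bases 868 to 921: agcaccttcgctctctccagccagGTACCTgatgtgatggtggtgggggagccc
Ldb1-206, coding bases 868 to 915: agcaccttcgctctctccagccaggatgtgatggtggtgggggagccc
Transcripts with the longer donor held 51.8% and 50.3% of Ldb1 TPM and the one with the shorter donor 36.4% and 37.2%. The longer form led in both pools. Ldb1-205, with an annotated 3′ end at 46033425, was in neither donor group, and the source of its shorter coding sequence was not examined. Starts in the upstream group served 87.6% and 86.7% of Ldb1 TPM, and a group 5.59 kb further in served 10.5% and 10.8%.

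Lmo2 used mainly its distal start. Lmo2-208, which encodes 158 codons, held 68.45% and 66.07%. Lmo2-204, annotated with an incomplete coding sequence, starts 11.5 kb downstream and held 15.21% and 18.47%. Transcripts from a group of starts 12.1 kb downstream held 16.3% and 15.5%. Among these, Lmo2-202 of 228 codons held 9.05% and 6.43% and Lmo2-203 of 220 codons held 7.29% and 9.03%. The order of these last forms differed between the pools, while Lmo2-208 led in both.

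Lmo4 was divided between starts 2.82 kb apart that serve the same protein. Lmo4-201 held 59.88% and 54.52% and Lmo4-203 held 36.78% and 40.97%. All complete coding forms of Lmo4 encode 165 codons and together held 97.1% and 95.9% of TPM. The upstream start led in both pools, with 62.2% and 57.9% of TPM.

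Lmo3 forms were estimated from few reads and moved between the pools. Lmo3-207, of 156 codons, held 57.19% and 45.27%, and Lmo3-204, of 145 codons and starting 161 kb upstream, held 18.11% and 34.42%. Lmo3-206 held 19.83% in replicate 1 and was listed at 0 in replicate 2. Lmo3-202 held 0.37% and 14.96%. Both of these encode the same 145 codons as Lmo3-204, and that coding sequence as a whole held 38.1% and 49.3%. The coding form in front was therefore Lmo3-207 in replicate 1 and the 145-codon form in replicate 2.

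Promoter sequence was examined for Lmo4 because RefSeq gives a start near each of its divided first exons, and for Lmo3 as the least abundant LMO gene. Shown are the 150 bases upstream of RefSeq starts on GRCm38.p6, minus strand, read 5′ to 3′ along the gene, with each CG dinucleotide in capitals.
Lmo4 upstream start, chr3:144205256-144205405: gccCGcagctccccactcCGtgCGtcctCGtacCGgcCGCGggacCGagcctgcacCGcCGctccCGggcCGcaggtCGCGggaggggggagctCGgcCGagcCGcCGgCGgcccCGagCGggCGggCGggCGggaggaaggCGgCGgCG
Lmo4 downstream start, chr3:144202397-144202546: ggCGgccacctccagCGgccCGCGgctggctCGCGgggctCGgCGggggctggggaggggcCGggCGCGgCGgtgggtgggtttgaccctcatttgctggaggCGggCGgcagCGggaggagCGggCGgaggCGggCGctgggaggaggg
Lmo3 upstream start, chr6:138581969-138582118: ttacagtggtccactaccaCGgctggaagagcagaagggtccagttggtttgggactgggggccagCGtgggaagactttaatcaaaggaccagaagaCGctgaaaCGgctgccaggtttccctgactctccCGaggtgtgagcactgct
Over the full windows of 300 bases, GC content was 81.3% and 73.7% at the Lmo4 starts and 50.0% at the Lmo3 start. CG dinucleotides numbered 52, 30 and 7. The medians over 32851 such windows of all genes were 52.7% GC and 7 CG dinucleotides. The Lmo4 starts were therefore far above the typical window and this Lmo3 start close to it. In the windows not shown, CG dinucleotides numbered 6 for Lhx9, the member with the highest mean TPM, and 29 and 39 for Lmo1. They numbered 34 and 29 for Lhx2, 41, 23 and 5 for Ldb1, and 31 for a further Lmo4 window. The Lmo3 window lies at the start of Lmo3-204, which held 18.11% and 34.42% of Lmo3 TPM. No window was given at the start of Lmo3-207, which held 57.19% and 45.27%. A link between base content and RNA level was not tested.

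Windows were given for 6 of the 8 genes, 12 windows in all, some of which overlap. The letters TAATTA, a core bound by many homeodomains that reads the same on both strands, were present in 2 of the 12 windows and in 5.29% of all windows. Both matches were in overlapping windows of Lmo1. The letters TATAAA, read on both strands, were present in 0 of the 12 and in 13.6% of all windows.

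The cofactors that stabilise LDB were among the abundant genes of the limb. Ssbp2, Ssbp3 and Ssbp4 encode single-stranded DNA-binding proteins that bind LDB and protect it from breakdown, and Rlim encodes a ubiquitin ligase that marks LDB for breakdown. Each of these 4 was detected, beside 56.3% of all protein-coding genes, and their median was 112 TPM. Ssbp2 had 178.44 and 162.91 TPM and Ssbp3 147.24 and 132.55 TPM. Both exceeded Ldb1 in each pool. Their log2 ratios between pools ran, with the other 2, from -0.14 to 0.04. None passed the test with its fold limit, beside 3.09% of all genes tested.

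Partners of Lmo2 in blood complexes divided in level between genes of E proteins, which many tissues express, and regulators of the blood lineage. Each of the 10 listed genes passed the detection level, beside 56.3% of all protein-coding genes, and their median was 3.30 TPM. None passed the between-pool test with its fold limit, beside 3.09% of all genes tested, so 0 of 10 is no result about these genes. Tcf3, encoding E2A, had 185.01 and 186.14 TPM, and Tcf4, encoding another E protein, had 168.35 and 163.37 TPM. The listed genes other than Ldb1 and the 3 E-protein genes ranged from 1.66 to 3.36 TPM, below Lmo2 itself. The LMO4 partners Deaf1, Rbbp8 and Brca1 were all detected, 3 of 3, with a median of 26.4 TPM. Deaf1, a DNA-binding regulator, had 30.96 and 29.76 TPM, and Rbbp8, which encodes CtIP, had 26.69 and 26.16 TPM. Lmo4 exceeded each of them in both pools.

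**Figure D5:**
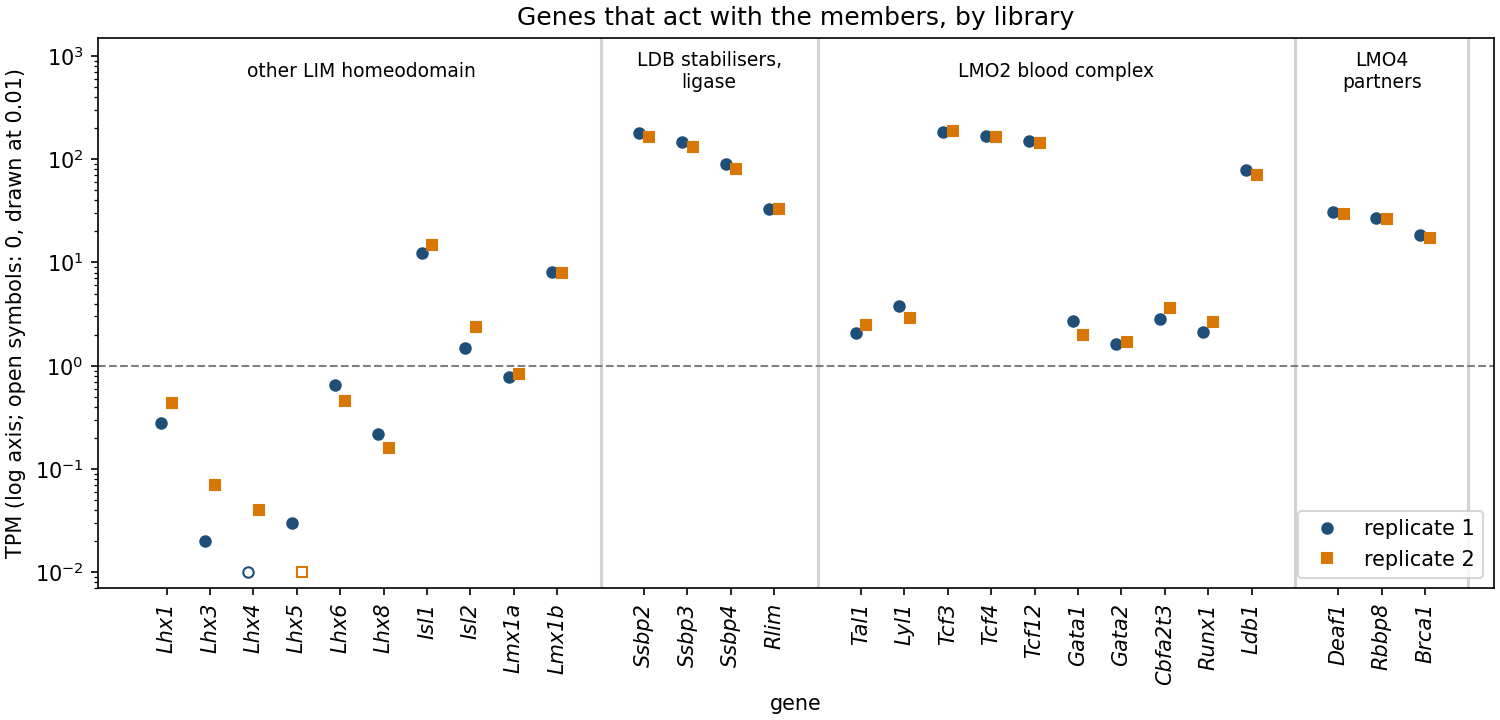
TPM of genes that act with the 8 genes, on a log axis, with circles for replicate 1 and squares for replicate 2. The dashed line marks 1 TPM, and LDB stabilisers and E-protein genes stand above most of the other LIM homeodomain genes in both pools.

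Of 9 ridge and posterior signal genes that act downstream of LIM homeodomain factors in limb, 8 passed the detection level, beside 56.3% of all protein-coding genes. The median was 11.0 TPM. Shh passed only at the limit, with 1.0 and 1.04 TPM. At 2 TPM, or with posterior mean TPM, 7 of the 9 passed. Fgf8, the ridge growth factor, had 36.59 and 31.78 TPM, and Hand2, a posterior regulator, had 22.66 and 23.57 TPM. The gene below detection at 1 TPM was Fgf4, another ridge growth factor, with 0.13 and 0.58 TPM from 11 and 40 counts. It was also the 1 gene of the 9 that passed the between-pool test with its fold limit, beside 3.09% of all genes tested, with a log2 ratio of 2.12.

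Markers of the cell types in a limb were read beside the 8 genes. The detection level was passed by 56.3% of all protein-coding genes. All 10 mesenchyme markers were detected, with a summed level of 843 TPM in replicate 1 and 808 TPM in replicate 2, and all 9 ectoderm markers, with 183 and 187 TPM. All 8 endothelial markers summed to 197 and 179.8 TPM and all 8 erythroid markers to 8009.9 and 7084 TPM. The erythroid sum was mostly Hbb-y, with 5993.33 and 5247.35 TPM, and Hba-x, with 1957.83 and 1786.97 TPM. Both blood-related sums were lower in replicate 2, as was the sum over all protein-coding genes, at 790976 and 741273 TPM. The lower sums are thus not particular to these lists. Lmo2 was higher in replicate 2, and single markers of both lists went both ways. Log2 ratios between pools ran from -0.41 to 0.23 in the endothelial list and from -0.40 to 0.12 in the erythroid list. The part of these cells in the Lmo2 difference was not tested. Of 7 neuron markers, 6 were detected, with 37.8 and 40.5 TPM in all, and Isl1 is one of them. All 5 muscle markers summed to 137 and 121 TPM, 5 of 6 macrophage markers were detected with 47.3 and 42.6 TPM, and 3 of 5 Schwann and crest markers with 13.9 and 12.7 TPM. None of 5 spinal cord markers was detected, with sums of 0.150 and 0.270 TPM, and Olig2 had 0 counts in both libraries, Dbx1 0 in replicate 2 and Sox1 0 in replicate 1. None of the markers in these lists passed the between-pool test with its fold limit, beside 3.09% of all genes tested. The spinal cord genes were too low to enter it.

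Expected counts on genes were 40.6 M in replicate 1 and 32.3 M in replicate 2. Spike-in RNAs took 5.37% and 7.92% of all counts and 11.8% and 17.2% of all TPM, so TPM of a gene is lowered more in replicate 2. Rescaled over genes alone, Lhx9 stood at 95.5 and 102 TPM and Ldb1 at 89.2 and 85.3 TPM. Ratios between genes of a library are not affected by this scale.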

How the data were processed

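Whole limb at embryonic day 11.5 was measured by total RNA-seq in 2 libraries. Per the labels, 10 ng of RNA longer than 200 nt entered each library with spike-in RNAs. Per the file headers, the authors quantified genes and transcripts on mm10 with GENCODE M4. Neither tool versions nor strand use is named in the sources used here. The deposited expected counts are estimated reads and need not be whole. The deposited TPM and FPKM values are scaled by length and library, spike-ins included. The deposited transcript tables give each transcript's percent of gene TPM. The deposited bounds of TPM are a signal range of unstated credibility level.

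Symbols, coordinates and coding sequences came from GENCODE M21 on GRCm38, where 42462 gene IDs matched and 884 did not. Of 46 member transcripts, 41 had the same length in M21, and those of Ldb2 and Lmo1 did not. Number-only entries (6.3e-05% and 4.8e-05% of counts) and 97 spike-ins entered neither library sizes nor tests. Counts were rounded, scaled by TMM in edgeR 4.0.16 to 40.4 M and 32.5 M, and tested for genes with at least 20 counts. Log2 ratios used a prior count of 0.5. A quasi-likelihood contrast needs more than the 1 group here. The biological coefficient of variation came from 16118 genes with at least 10 counts in each library. Steps between neighbouring genes used a pseudocount of 0.1 TPM and 20 abundance bins. The LIM motif and homeodomain core were searched in translated coding sequences, and promoters came from RefSeq. Residue identity was taken between Lhx2-201 and Lhx9-204, between Ldb1-201 and Ldb2-201, and among Lmo1-201, Lmo2-208, Lmo3-207 and Lmo4-201. Of these steps, only the binomial test between pools was tried on simulated counts, which held counting noise alone and known fold changes. Alternatives were other scalings (DESeq2 1.42.0 size factors among them), filters, posterior mean TPM, expected counts and each library alone.

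Named were all 8 genes, their transcripts at 10% or more, overlapping genes and, from each list, the 2 highest genes, genes at 0 and genes past the test. Marker lists are given as counts and sums, and Hbb-y and Hba-x were named for their part in the erythroid sum. Shh was named for its values at the detection level. The members and lists were chosen with earlier results of these data known. The binomial p-values treat reads as independent and cover counting error only, with no spread between replicates.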

Additional observations from a re-analysis of the deposited data

How the results depend on the processing

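Some orders turned when 1 library was left out. The ratio of LIM homeodomain to LDB RNA was 1.01 over both pools, 1.06 without replicate 1 and 0.956 without replicate 2. Without replicate 1, Lmo2 stood above Ldb2, and Lmo3-207 (45.4%) fell behind the 145-codon Lmo3 form (49.3%), which it led in the mean (51.3% and 43.7%). By expected counts in replicate 1, the distal Lhx9 form (49.0%) led the forms with the core (46.9%). Left to 1 library at a time, the number of neighbouring steps that differed ranged from 2 to 4. Calls between pools rose from 0 to 3 with the adjusted p alone. With posterior mean TPM, the ratio of Lhx9 to Lhx2 was 3.44, the Lmo2-208 share 63.6% and the Lmo3-207 share 39.2%. With expected counts in place of TPM, the Lhx9 share with the homeodomain core was 48.5%, that with the distal last exon 46.8%, the Ldb1 share with the longer donor 47.7%, the Lmo2-208 share 71.8% and the Lmo4 share from the upstream start 65.7%. The cause was not tested, except that expected counts weight a transcript by its length. Gene levels moved by more than the spread for 8 of 8 genes in FPKM and in TPM rescaled without spike-ins. Both only change the scale within a library, so this move was fixed in advance. Ratios between genes stayed, as for Lhx9 over Lhx2 at 3.67 in either unit. No paired analysis was possible because the labels give 1 group and no contrast. With 2 libraries no SD here is precise, and 222 and 161 counts limit the Lmo3 forms.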
